A study of Epimedium pseudowushanense with 3 samples.

Results

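In seeds of Epimedium pseudowushanense, a herb of the barberry family, 244 of 178603 assembled transcripts gained level at both of 2 consecutive steps towards germination. They were higher in seeds whose embryo had grown past 0.5 of the seed length than in seeds whose embryo was starting to grow, and higher again in germinating seeds. Together they held 0.699% of the summed transcript level at the first stage, 3.18% at the middle one and 9.66% in germinating seeds. Levels are in RPKM, the unit of the deposited table, in which a read count is divided by transcript length and by the total of mapped reads.

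The study followed the transcriptome of seeds through morphophysiological dormancy, with an interest in how the hormones abscisic acid and gibberellin are made, broken down and sensed. Each of the 3 stages had 1 library of total RNA from seeds, and the labels give no genotype, treatment or number of seeds. Every value is therefore from a single library, no difference has a replicate check, and no p-value is given. A difference between stages cannot be told apart from a difference between the seed lots or preparations used for each library. Since each library came from seeds and not from a single cell type, more cells of one type and more RNA per cell cannot be told apart either.

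In morphophysiological dormancy the embryo of the shed seed is small and must grow inside the seed before the root can emerge, and a physiological block must also be lifted. Abscisic acid holds seeds dormant and restrains germination, while gibberellins promote embryo growth, the weakening of the tissue around the embryo and the mobilisation of stored reserves. Transcripts that gain level from embryo growth into germination are found in many seeds, and commonly include genes of cell wall loosening, reserve breakdown, energy metabolism and protein synthesis. The table pairs its identifiers with no gene names, so which of these functions the 244 transcripts have was not analysed here, nor were individual hormone genes.

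The members were chosen by their measured levels, so the gain itself is not a finding. On the scale of log2(RPKM + 1), each had to be higher by at least 1 at the first step (middle against first stage) and by at least 1 at the last step (germinating against middle stage), with a level of 10 RPKM or more in both the middle and the germinating library. Of 8335 transcripts that had 10 RPKM or more in the higher library of the first step, 1660 (19.9%) passed at that step. At the last step 819 of 8741 (9.37%) passed. Of the 6584 transcripts with at least 10 RPKM at both the middle stage and germination, the 244 made up 3.71%. The values below describe the members that this selection found.

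At the first stage most members were weakly present. Their levels ran from 0 to 770.3 RPKM with a median of 5.43 RPKM and quartiles of 2.91 and 10.6 RPKM. At the middle stage the median was 25.3 RPKM, the quartiles 14.8 and 60.2 RPKM and the highest value 4078 RPKM. In germinating seeds the median was 80.6 RPKM, the quartiles 48.9 and 213 RPKM, and the range 22.0 to 9362 RPKM. The lower quartile in germinating seeds was thus above the upper quartile of the first stage, although the extremes of the stages overlapped.

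**Figure D1:**
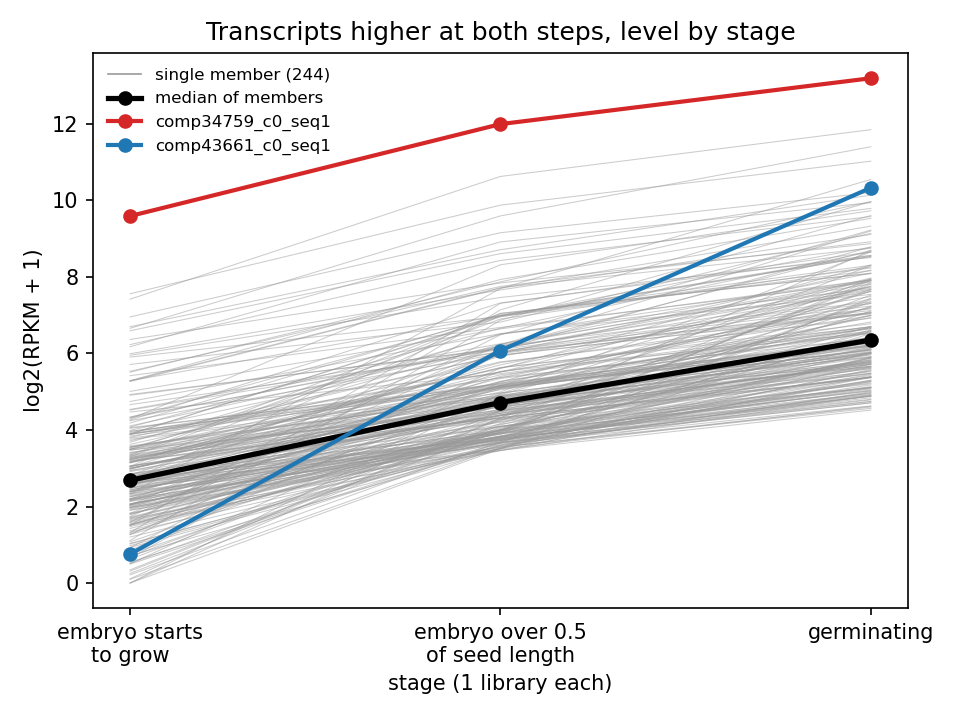
Level of each of the 244 members on the log2(RPKM + 1) scale (vertical axis) at the 3 stages (horizontal axis, 1 library each); grey lines are single members, the black line joins the medians and the coloured lines are the 2 members named in the text. The medians are 5.43, 25.3 and 80.6 RPKM, and the blue line starts below the black one and ends above it.

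Every member had a higher level at each later stage because the rule required it. The counts and ranks that follow are drawn from the same values and only describe the selected members. At the first stage 68 of the 244 (27.9%) reached 10 RPKM and 5 reached 100 RPKM. At the middle stage 36 reached 100 RPKM, and in germinating seeds 104 (42.6%) did so and 9 reached 1000 RPKM. By rank among all 178603 transcripts, the median member stood at 9759 when embryo growth began. Most transcripts of the table had very low values there, since 0.69 RPKM ranked 36393 and a value of 0 ranked 134658. The median member stood at 3338.5 at the middle stage and at 1195.5 in germinating seeds. The 1000 most abundant transcripts included 10 members when embryo growth began, 41 midway and 111 in germinating seeds. Of the 100 most abundant transcripts, 1, 4 and 16 were members at the 3 stages in order.

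The members were also counted by their level in germinating seeds, as a description only. The rule itself used that level, which had to be over 2 times a middle value of 10 RPKM or more, so a share that increases with it is in part built in at every level. Of the 2602 transcripts with 20 up to 50 RPKM there, 66 (2.54%) were members. The share was 7.45% (74 of 993) from 50 up to 100 RPKM and 9.98% (64 of 641) from 100 up to 300 RPKM. It was 12.4% (31 of 249) from 300 up to 1000 RPKM, and 9 of the 40 transcripts with 1000 RPKM or more were members (22.5%).

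**Figure D2:**
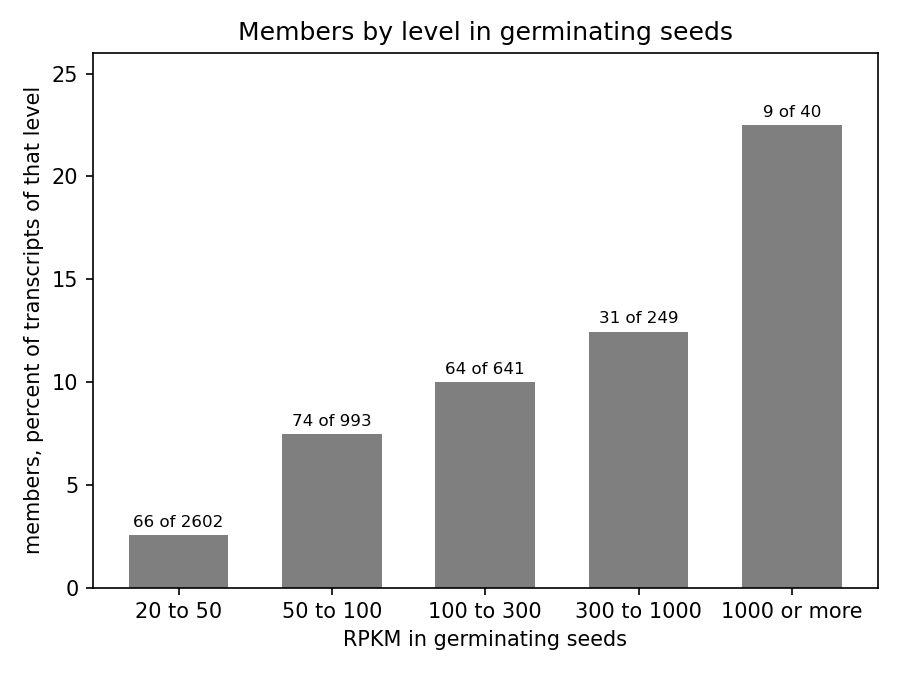
Share of transcripts that are members (vertical axis, percent) in classes of level in germinating seeds (horizontal axis, RPKM, lower bound included); the numbers over the bars are members of all transcripts in the class. The share is 2.54% in the weakest class and 22.5% in the most abundant one, which holds 40 transcripts; the rule used this level, so the trend is in part built in.

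One transcript stood far above the other members at every stage. The transcript comp34759_c0_seq1 had 770.3 RPKM in the first library, 4078 RPKM in the middle one and 9362 RPKM in the germinating one. It ranked 53, then 3, then 2 among all transcripts of the library. Its first step was 2.40 and its last step 1.20 on the log2(RPKM + 1) scale, and the total of 3.60 was close to the median member's total of 3.42. This transcript alone made up 1.52% of the summed RPKM of germinating seeds and 15.7% of the members' sum there. Without it the other 243 members held 0.556%, 2.53% and 8.14% of the library sums in stage order.

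The members next in abundance also started at a substantial level. The second had 170.1, 1580 and 3686 RPKM in stage order, which placed it at rank 5 in germinating seeds. The third had 99.96, 772.1 and 2704 RPKM, and the fourth had 187.7, 938.5 and 2082 RPKM. These 3 already ranked between 325 and 655 among all transcripts when embryo growth began. The fifth differed from them, with 4.03, 206.6 and 1496 RPKM in stage order.

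The increase in the summed level came from a few abundant members as well as from the many below them. The 10 members most abundant in germinating seeds made up 39.9% of the members' sum at the first stage, 45.2% midway and 41.9% at germination. The 234 below them held 0.420%, 1.74% and 5.62% of the library sums in stage order. Summed RPKM weighs transcripts per length, so these are shares of length-corrected levels and not of reads. The most abundant transcript of the table, which is no member, lowers the shares of all others, and without it the members held 0.782%, 3.40% and 10.2% of the library sums.

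**Figure D3:**
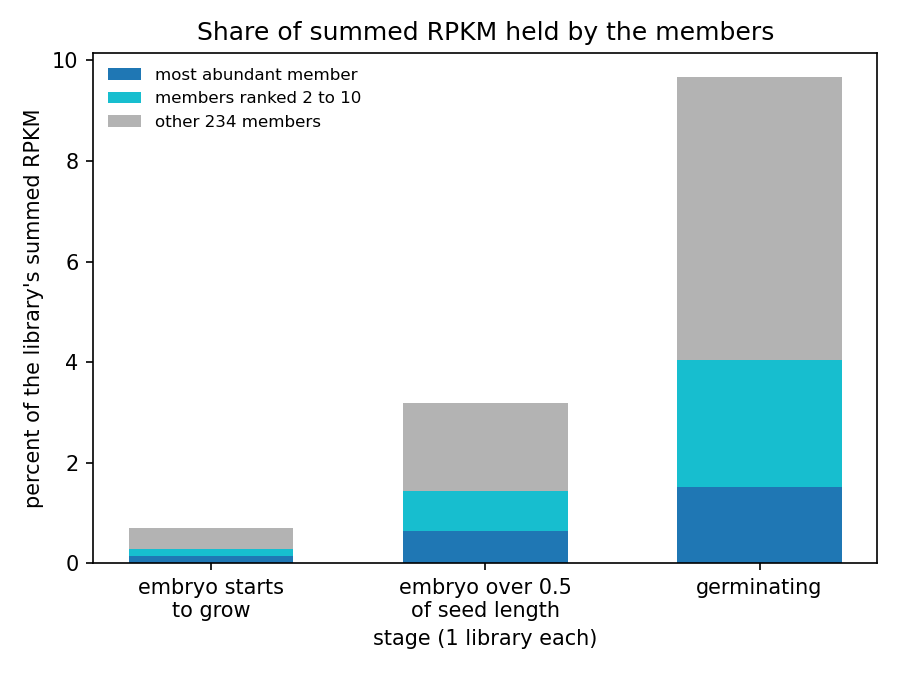
Percent of each library's summed RPKM held by the members (vertical axis) at the 3 stages (horizontal axis, 1 library each), with the most abundant member, the members ranked 2 to 10 in germinating seeds and the other 234 stacked. The totals are 0.699%, 3.18% and 9.66%, and the grey part makes up more than any other at each stage.

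The first step was the larger one in most members. It was larger than the last in 193 of 244 members (79.1%) and smaller in 51. The first step had a median of 2.01 on the log2(RPKM + 1) scale (quartiles 1.56 and 2.62, highest 5.82), and the last step a median of 1.37 (quartiles 1.15 and 1.93, highest 4.37). Over all transcripts tested the median difference as deposited was also greater at the first step, with 0.29 against 0.12 at the last. That order was reversed with median-of-ratios (0.17 against 0.43), trimmed-mean (0.03 against 0.40) and equal sums rescaling (0.08 against 0.14). It was kept with trimmed means over transcripts of 1 RPKM or more (0.12 against 0.07). The steps share the middle library, so a shift of that library moves them in opposite directions. With median-of-ratios rescaling of the libraries 143 of the same 244 members still had the larger first step, and with trimmed-mean rescaling 129 did, so that the margin depends on the scaling. With equal sums the number was 165. The rule set a minimum level for the start of the last step but none for that of the first, which favours larger first steps. The share with a larger first step varied with that minimum. It was 60.0% (330 of 550) with none, 72.7% (261 of 359) at 5 RPKM and 84.6% (126 of 149) at 20 RPKM. A pseudocount of 5 gave 66.5% (119 of 179).

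In linear terms the last step was close to 2-fold for many members, which is the least the rule allows. The ratio of the germinating to the middle library had a median of 2.65 (quartiles 2.25 and 3.93), with a lowest value of 2.04 and a highest of 21.8. For the 221 members with at least 1 RPKM at the first stage, the ratio of the middle to the first library had a median of 4.39 (quartiles 3.17 and 6.39). For the same 221 the ratio of the germinating to the first library had a median of 11.3, with quartiles of 7.94 and 23.9 and extremes of 4.43 and 671. Ratios to the first library are not given for the 23 members under 1 RPKM at the first stage, since such values may rest on few reads.

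**Figure D4:**
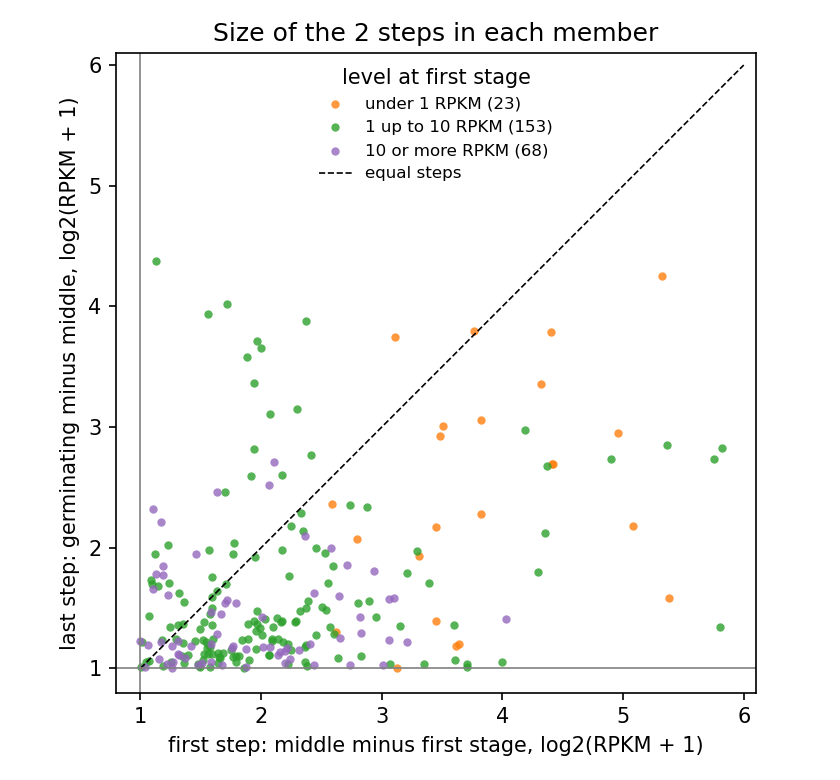
Last step (vertical axis, germinating minus middle stage) against first step (horizontal axis, middle minus first stage), both as differences in log2(RPKM + 1), with 1 point per member coloured by its level at the first stage. Points below the dashed line (193 of 244) have the larger first step; the grey lines at 1 are the limits of the rule.

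Few members gained strongly at both steps. Both differences were under 1.5 in 36 members, and both were at least 1.5 in 80, at least 2 in 37 and at least 3 in 7. All of these 7 were under 1 RPKM at the first stage. Their first step thus depends on the pseudocount and may rest on few reads or none. A further pattern, a first step of at least 2 followed by a last step under 1.5, was held by 64 members, and 4 had the opposite, a first step under 1.5 and a last step of at least 2. The share of the total log2 difference that fell in the first step had a median of 58.7%, with quartiles of 51.5% and 64.2% and extremes of 20.6% and 81.2%.

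The member whose smaller step was the greatest was comp43661_c0_seq1, with 0.69, 66.5 and 1285 RPKM in stage order. Its steps were 5.32 and 4.25, and it stood at rank 36393, then 1219, then 25 in its libraries. From the middle stage to germination its level was 19.3 times as high. The member with the next greatest smaller step had 0.08, 21.9 and 314 RPKM, with steps of 4.40 and 3.78. The one after it had 0.19, 15.1 and 224 RPKM, with almost equal steps of 3.76 and 3.80. All 3 were under 1 RPKM at the first stage and over 100 RPKM in germinating seeds, with the middle library well between the ends.

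A first step of at least 4 was seen in 18 members, of which 14 also had a last step of at least 2. The greatest first step, 5.82, belonged to a member with 1.49, 140.0 and 999 RPKM. A member with 1.84, 158 and 402 RPKM had nearly the same first step, 5.80, but a last step of 1.34, so that 81.2% of its total lay in the first step, more than in any other member. Another, with 1.16, 116 and 778 RPKM, gained 5.76 and 2.74. These 3 members lay close together at the first stage and further apart at germination.

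A last step of at least 3 was seen in 17 members, and in 12 of them it was the larger step. The greatest, 4.37, belonged to a member with 8.11, 19.0 and 413 RPKM, whose first step of 1.13 was just over the limit, so that 20.6% of its total lay there. A member with 3.51, 13.8 and 239 RPKM gained 1.72 and then 4.02, and one with 2.87, 10.4 and 173 RPKM gained 1.56 and then 3.94. Of the 17, 10 had 1 up to 10 RPKM at the first stage and the other 7 were under 1 RPKM. No member that started at 10 RPKM or more was among them, and the greatest last step in that class was 2.71.

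Members that started lower had larger differences at both steps on this scale. The 23 members under 1 RPKM at the first stage had medians of 0.43, 16.6 and 97.3 RPKM in stage order, and median steps of 3.64 and 2.36. The 153 members with 1 up to 10 RPKM had medians of 4.43, 19.9 and 59.6 RPKM and median steps of 1.96 and 1.36. The 68 members with 10 RPKM or more had medians of 18.0, 73.3 and 235 RPKM and median steps of 1.76 and 1.22. A low start favours a large first step by construction, because all members had to reach 10 RPKM at the middle stage. The ratio of germinating to middle level, which the selection also used, had medians of 5.53, 2.64 and 2.35 in the 3 classes from low to high start. Most of this difference lay between the lowest class, of 23 members, and the others, and the ranges of the classes overlapped.

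The first step was the larger in 21 of the 23 members of the lowest class, in 118 of the 153 of the middle class and in 54 of the 68 of the highest class. The lowest class ended at a higher median level in germinating seeds than the middle class, although it was lower at the first 2 stages. The lowest value in germinating seeds was 23.8 RPKM in the lowest class, 22.0 RPKM in the middle class and 44.9 RPKM in the highest, and the 3 classes overlapped widely there.

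In the first library 3 members were listed at 0, and 9 were under 0.3 RPKM with these included. The 3 had 30.01, 18.9 and 10.4 RPKM in the middle library. In germinating seeds the same 3 had 239, 203 and 91.0 RPKM, in the same order. Values this low in the first library can rest on single reads or on none, and no fold is given for them. At the other end, the weakest member of germinating seeds had 2.20, 10.1 and 22.0 RPKM.

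The order of the members by level was better kept between neighbouring stages than over the whole period. Across the 244 members, Spearman's rho between levels was 0.69 for the first and middle stages, 0.83 for the middle and germinating stages and 0.43 for the first and germinating stages. These values are across transcripts, which share their libraries and passed the same limits, and are given as a description.

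Transcripts just outside the rule had values like those just inside it. The member with the smallest first step, 1.00, had 21.2, 43.4 and 103 RPKM, while the nearest transcript outside had 36.0, 71.2 and 159 RPKM and a first step of 0.96. The member with the smallest last step had 6.62, 26.6 and 54.2 RPKM, and the nearest outside had 16.2, 42.3 and 85.6 RPKM with a last step just under 1. For the minimum at the middle stage, the nearest inside had 1.85, 10 and 40.7 RPKM, and the nearest outside 3.65, 9.97 and 23.1 RPKM. The last step was the crowded limit: 46 members had a last step from 1 up to 1.1, and 69 transcripts that met all other conditions had 0.9 up to 1. At the first step these numbers were 9 and 11.

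The members were a minority of what gained level at the first step, as deposited and under every rescaling tried. Of the 1660 transcripts higher at that step, the 244 (14.7%) were higher by 1 or more again in germinating seeds, and 391 (23.6%) were higher by 0.5 up to 1. Another 552 (33.3%) stayed within 0.5 of their middle level, 49 were lower by 0.5 up to 1, and 424 (25.5%) were lower by 1 or more. Over all transcripts tested at the last step, 819 of 8741 (9.37%) were higher there as deposited. That set also holds transcripts under 10 RPKM at the middle stage, so the 2 shares are not directly comparable. The share that gained again depended on the scaling: it was 29.4% (385 of 1309) with median-of-ratios rescaling, 29.0% (320 of 1105) with trimmed means and 17.7% (222 of 1251) with equal sums.

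Many of the transcripts higher at the last step had also been higher at the first. Of the 819 transcripts higher at the last step, the 244 members made up 29.8%. A further 207 (25.3%) had also been higher by 1 or more at the first step but were under 10 RPKM at the middle stage, which alone kept them out. The first step was within 1 in 346 (42.2%), and 22 were lower by 1 or more there. Among the 378 that had at least 10 RPKM at the middle stage the members were 64.6%. Over all transcripts tested at the first step 19.9% were higher there, but that set was chosen by other levels, so the shares are not directly comparable. The share of last-step transcripts higher at both steps also varied with scaling. It was 25.4% (385 of 1513) with median-of-ratios rescaling, 22.8% (320 of 1405) with trimmed means and 26.6% (222 of 835) with equal sums.

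The identifiers were also compared, since the rule did not use them. In identifiers of this form the last number counts alternative sequences assembled for one component, and it was above 1 in 30 of the 244 members (12.3%). Among the 3947 other transcripts at least as high in germinating seeds as the weakest member it was above 1 in 567 (14.4%). A subcomponent number above 0 was found in 11 members (4.51%) and in 191 of those other transcripts (4.84%). A test of these shares was not made.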

How the data were processed

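Seed RNA extracted with TRIzol was sequenced as paired-end libraries on an Illumina HiSeq, per the labels' protocols, with 1 library for each of 3 stages. The authors deposited 1 table of RPKM values printed to 2 decimals. R 3.1.0 is listed in the submitters' processing notes. The assembler, aligner, counting rule and read totals were not given in the sources used here. Transcript lengths were not used. Precision is set by an unknown number of reads. RPKM is relative to each library's total, and a transcript that takes many reads lowers the others. Low values were taken to fall on steps worth 1 read, which was not checked. Ratios were taken over transcripts at 0.4 up to 1.2 RPKM in both libraries compared. The commonest ratio was 1.00 for the middle over the first library, with 1872 of 11480 transcripts near it. For the germinating over the middle library it was 1.07, with 846 of 6696 near it. Only ratios near 1 were sought.

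Columns were assigned by their names, which equal library titles. Values were used as deposited, with a pseudocount of 1, in Python 3.11.15 with numpy 2.4.6 and pandas 2.3.3. Trimmed means left out 30% of the log ratios and 5% of the levels at each end. The code applying the rule was checked on simulated data with known changes. Members, classes and alternatives were chosen with earlier results of these data known. At most 2 identifiers are printed: the member with the greatest smaller step and the most abundant member of germinating seeds. Other members are described by their place in the distribution and were picked after their values were seen.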

Additional observations from a re-analysis of the deposited data

How the results depend on the processing

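With 1 library per stage, no replicate could be left out, and depth limits values under 1 RPKM. No paired analysis was possible because each stage had 1 library. Counts are given for both steps, for a larger first step among these, and for each single step in time order. No minimum gave 550, 330, 10860 and 1906. A size rule of 1.5 gave 80, 57, 937 and 414, and one of 2 gave 37, 28, 609 and 259. A minimum of 20 RPKM gave 149, 126 and 922 for the first 3, and one of 5 RPKM gave 2681 for the first step. A pseudocount of 5 gave 119 with a larger first step. These settings admit or remove weak or small differences by construction.

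Median-of-ratios rescaling gave 385 transcripts higher at both steps, 218 of them among the 244, and 1513 higher at the last step. Trimmed-mean rescaling gave 320, 201 of them among the 244, with 1105 higher at the first step and 1405 at the last. These scalings moved the median of the transcripts tested at the last step to 0.43 and 0.40, against 0.12 as deposited, and at the first step to 0.17 and 0.03, against 0.29. Trimmed means over transcripts of 1 RPKM or more, chosen after seeing the data, moved the medians the other way at the last step, to 0.07 (0.12 at the first), and gave 199 higher at both steps, all among the 244. Equal sums gave 222, of which 213 were among the 244. Of 44 recomputed counts, 23 stayed within 1.5 times.

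The total log2 difference of comp43661_c0_seq1 was 10.67 with a pseudocount of 0.1, 7.82 with 5, 9.77 with median-of-ratios, 9.65 with trimmed means, 9.42 with those over 1 RPKM and 9.46 with equal sums. For comp34759_c0_seq1 these were 3.60, 3.59, 3.81, 3.63, 3.37 and 3.41. With its most abundant member left out of both the group and the library sum, the group held 8.27% of the summed RPKM of germinating seeds, and with the most abundant transcript overall left out of the library sum 10.2%, both chosen after seeing the data.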
